A study of Mus musculus with 11 samples.

Results

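The data described here are the transcript levels of 10 genes of bone morphogenetic protein (BMP) signalling in the early mouse hindlimb (HL) bud: the ligand genes Bmp2, Bmp4 and Bmp7, the homeobox genes Msx1 and Msx2, the inhibitor of differentiation genes Id1, Id2 and Id3, and the feedback genes Smad6 and Bambi. They were taken by symbol from a table of 13720 genes, and all 10 were measured in all 11 libraries. The study asked what the limb bud loses when the homeodomain genes Meis1 and Meis2 are removed. Each library held the RNA of both HLs of 1 embryo at E10, with 5 embryos of the WT group and 6 of the Meis1 and Meis2 knockout group (M1KO;M2KO, written KO).

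An Ovation set held WT S_252 and S_254 and KO S_258, S_280 and S_284, named by the numbers in their titles. It was amplified before sequencing and covered 30 to 33 somites. Its WT embryos were at 30 to 31 (S_252) and 32 (S_254). Its KO embryos were at 30 to 31 (S_258), 32 to 33 (S_280) and 31 to 32 (S_284). Both WT embryos of the Ovation set were female and from litter 1, while its KO embryos were male and from litters 1, 3 and 4, so sex and genotype cannot be told apart in that set. WT S_252 was labelled M1wtM2wt, WT S_254 carried 1 altered Meis1 allele (M1hetM2wt), and the KO embryos were M1koM2ko. A NEBNext set, made with a directional kit from embryos of about 30 to 31 somites, held WT 1, 3 and 4 (genotype WT) and KO 2, 3 and 4 (HoxB6CreER;Meis1Ko;Meis2KO), with no sex or litter given. In the study the Meis2 allele was conditional and Meis1 was either conditional or deleted throughout. The tamoxifen-induced HoxB6CreER driver removed the conditional alleles in the lateral plate, which forms the HL mesenchyme, so overlying ectoderm, vessels and blood of a KO bud need not lack both genes.

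BMP ligands are secreted dimers that bring together type I and type II receptors, which phosphorylate Smad1, Smad5 and Smad9. These join Smad4 in the nucleus and switch on target genes, among which Msx and Id genes are the most widely used readouts and Smad6 and Bambi act as brakes on the pathway itself. In the limb bud BMP signals are known for their parts in forming the apical ectodermal ridge (AER), in dorsoventral patterning and later in cell death between the digits.

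Values are read counts scaled for library size (CPM) and batch-corrected by the authors. The CPM of a library summed to between 754534 and 805762, and read depth was not given, so the counting error behind a value is unknown. The limb label fitted its markers, since Pitx1, a hindlimb selector gene, lay between 15.5 and 26.9 CPM and Tbx4 between 48.6 and 89.9 CPM over all libraries. The 7 hindlimb mesenchyme markers summed to between 650.0 and 894 CPM in WT and between 764 and 1052 CPM in KO, and limma called 0 of them, with 3 at an unadjusted p under 0.05 (log2 fold changes of -0.57 for Fgf10, 0.48 for Prrx1 and 0.28 for Hoxc10). Of 3 neural crest and neuron markers tested 1 rose, Fabp7, from 0.161 ± 0.119 CPM (SD, n = 5) to 1.31 ± 0.604 CPM (SD, n = 6, limma adjusted p = 0.0177). Tubb3 went the other way without passing, with a log2 fold change of -0.93 (limma unadjusted p = 0.00228, adjusted p = 0.0769). The 3 together summed to between 5.05 and 8.36 CPM in WT and between 5.18 and 8.73 CPM in KO. Meis1 lay between 106 and 149.7 CPM in WT and 110.3 and 158 CPM in KO, and Meis2 between 180.1 and 239 CPM in WT and 176 and 285 CPM in KO. Gene-level values do not show whether a deleted exon was present, so they check no label. Of 12996 genes tested with limma, 272 (2.09%) passed an adjusted p of 0.05 between KO and WT and 137 (1.05%) were lower in KO. In 217 genes (1.67%) every KO library lay below every WT library. The summed AER markers lay between 87.9 and 102 CPM in WT and between 33.2 and 48.0 CPM in KO, and 6 of the 7 tested were lower (En1, Fgf8, Rspo2, Dlx5, Sp6 and Sp8). The AER marker genes Fgf4, Fgf9 and Fgf17 were not among the genes tested. Surface ectoderm markers summed to between 265 and 348 CPM in WT and between 213 and 378 CPM in KO, with 0 of 12 called by limma and 2 of 12 (Krt5 and Cldn6, both lower in KO) at an unadjusted p under 0.05, beside 14.7% of all genes. The AER and the bud mesenchyme both express BMP ligands and Msx genes. In whole buds, fewer cells of a type and less RNA per cell cannot be told apart.

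Among the 10 genes, Msx1 and Bmp7 fell in KO buds, each 1.62-fold, and none rose. Msx2 and Bambi were 1.51-fold and 1.43-fold lower without passing the adjusted test, and Bmp4 was 1.23-fold lower. The Id genes, Smad6 and Bmp2 lay between 1.08-fold lower and 1.14-fold higher than in WT, and none of them passed. The AER markers were lower in the same KO libraries, and the part of the AER and of shifts among mesenchyme markers in these values was not tested. Thus 2 of 10 passed against 2.09% of all genes tested, both of them lower against 1.05% of all genes, and the same 2 genes were the ones in which every KO library lay below every WT library, against 1.67% of all genes. At an unadjusted p under 0.05 the count was 5 of 10, against 14.7% of all genes. The log2 fold change was below 0 in 8 of the 10 genes and in 49.8% of all genes, and its median was -0.21, beside 0.00038 over all genes.

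**Figure D1:**
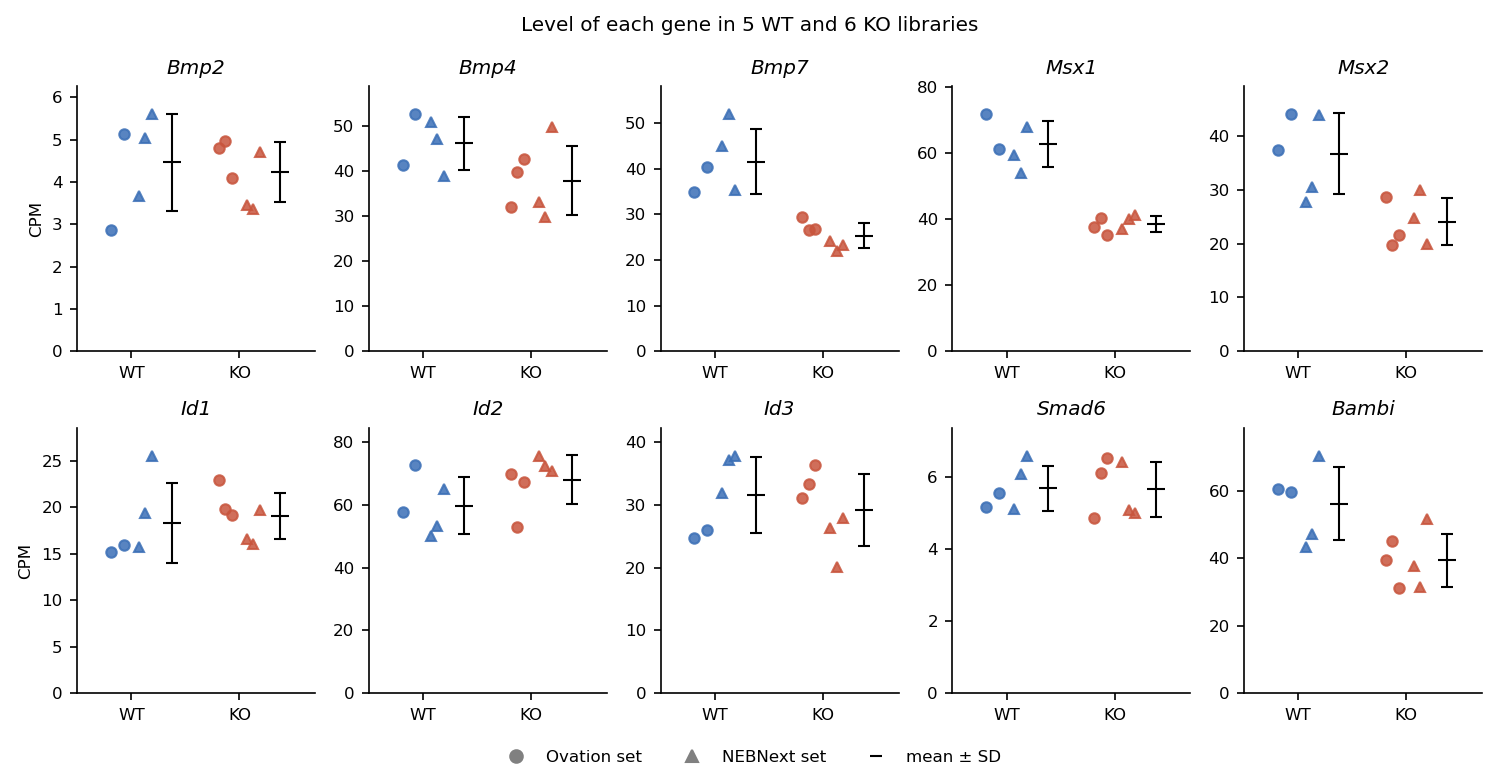
Level of each gene in CPM (y axis, from 0) in every WT (blue) and KO (red) library, with circles for the Ovation set, triangles for the NEBNext set and a black bar for the mean ± SD over 5 WT or 6 KO libraries. The groups separate for Bmp7 (highest KO 29.4, lowest WT 35.0 CPM) and Msx1 (highest KO 41.2, lowest WT 53.9 CPM) and overlap for the other 8 genes.

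Upstream sequence of the members was read from RefSeq (GRCm38.p6), which held a window for 6 of the 10 genes, and the 250 bases before the start were searched on both strands for TGACAG (bound by Meis proteins), GGCGCC and GGAGCC (bound by Smad1 and Smad5) and CAGACA (bound by Smad4). Msx1, which fell, is shown beside Bmp4 and Smad6, which did not pass, since these 3 windows lie outside annotated exons. Capitals mark a match on either strand.
Msx1, chr5:37824586-37824835, minus strand: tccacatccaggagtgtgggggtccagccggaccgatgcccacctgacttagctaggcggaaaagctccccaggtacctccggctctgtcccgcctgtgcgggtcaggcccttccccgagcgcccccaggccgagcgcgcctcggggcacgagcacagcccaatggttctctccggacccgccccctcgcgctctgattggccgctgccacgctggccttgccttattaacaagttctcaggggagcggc
Bmp4, chr14:46390670-46390919, minus strand: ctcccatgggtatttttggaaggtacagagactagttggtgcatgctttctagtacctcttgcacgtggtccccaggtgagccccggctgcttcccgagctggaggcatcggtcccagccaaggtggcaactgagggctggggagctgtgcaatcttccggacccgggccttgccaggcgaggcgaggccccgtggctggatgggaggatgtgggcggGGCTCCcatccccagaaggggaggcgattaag
Smad6, chr9:64022060-64022309, minus strand: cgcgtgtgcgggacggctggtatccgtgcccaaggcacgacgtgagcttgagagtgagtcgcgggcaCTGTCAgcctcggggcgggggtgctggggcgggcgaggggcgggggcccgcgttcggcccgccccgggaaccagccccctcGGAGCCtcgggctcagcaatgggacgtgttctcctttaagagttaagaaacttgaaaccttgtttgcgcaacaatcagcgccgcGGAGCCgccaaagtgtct
The Msx1 window held none of the 4 motifs, although at 68% it was the richest of the 3 in G and C. Bmp4 held GGAGCC on the opposite strand at -32 to -27 from the start. Smad6 held TGACAG on the opposite strand at -183 to -178 and GGAGCC at -102 to -97 and at -18 to -13. Among 32851 promoters of the same length, TGACAG was found in 15.9%, GGCGCC in 9.59%, GGAGCC in 26.0% and CAGACA in 17.1%. Among the 12977 of them that belong to genes of the table the shares were 13.7%, 16.8%, 35.0% and 13.4%. Of the windows not shown, Msx2, Id2 and Id3 each held GGAGCC, and Id2 also held GGCGCC. These windows overlap annotated exons, by all 250 bases for Msx2 and Id3 and by 161 bases for Id2. A match shows letters in these windows, not binding, and a window without a match says nothing about sites elsewhere. The paper reports that Meis peaks in limb buds favoured distal enhancers, which these windows do not cover. Bmp2, Bmp7, Id1 and Bambi had no entry.

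Bmp7 encodes a ligand made by limb bud mesenchyme and AER. Its gene (ENSMUSG00000008999) spans positions 172868012 to 172940321 of chromosome 2 (GRCm38, minus strand). Bmp7 was at 35.0 CPM in WT S_252, 40.3 in S_254, 45.0 in WT 1, 51.9 in WT 3 and 35.3 in WT 4. In the 6 KO libraries Bmp7 ranged from 21.9 to 29.4 CPM with a median of 25.4. All KO libraries thus lay below all WT libraries, WT 3 was the highest of all, and the 3 NEBNext KO libraries were the lowest. Mean levels were 41.5 ± 7.12 CPM (SD, n = 5) in WT and 25.4 ± 2.72 CPM (SD, n = 6) in KO. On the log2 scale of CPM + 0.5, to which every fold change here refers, the difference for Bmp7 was -0.69 (SE 0.12, 95% interval -0.95 to -0.44, limma adjusted p = 0.00897), which ranked 64 by p among 12996 genes.

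Bmp4 encodes the other main mesenchymal ligand, which also acts in AER formation. Its gene spans positions 46383520 to 46390669 of chromosome 14 on the minus strand. Bmp4 was at 41.2 CPM in WT S_252, 52.5 in S_254, 50.9 in WT 1, 47.0 in WT 3 and 38.9 in WT 4, and in KO libraries it ranged from 29.9 to 49.8 CPM with a median of 36.4. Only KO S_258, KO 2 and KO 3 lay below the lowest WT library, and KO 4 reached into the upper part of the WT range. Bmp4 had a log2 fold change of -0.30 (95% interval -0.59 to -0.01), with an unadjusted p of 0.0452 and a limma adjusted p of 0.326.

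Bmp2, the posterior and ridge ligand of the bud, was the least abundant of the 3 (chromosome 2, 133552159 to 133562885, plus strand). Bmp2 was at 2.86 CPM in WT S_252, 5.14 in S_254, 3.68 in WT 1, 5.05 in WT 3 and 5.60 in WT 4, and the KO libraries ranged from 3.35 to 4.96 CPM with a median of 4.41. The KO range lay inside the WT range. The log2 fold change was -0.05 with an interval of -0.48 to 0.38 and a limma adjusted p of 0.953. The estimate for Bmp7 lay outside this interval, but the intervals of the 2 genes overlapped (-0.95 to -0.44 for Bmp7).

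Msx1 and Msx2 encode homeodomain repressors that respond to BMP signals in bud mesenchyme and, for Msx2, also in the AER. Msx1 (ENSMUSG00000048450) lies at positions 37820485 to 37824583 of chromosome 5 and Msx2 at 53466884 to 53473074 of chromosome 13, both on the minus strand. Msx1 was at 71.7 CPM in WT S_252, 61.2 in S_254, 59.3 in WT 1, 53.9 in WT 3 and 67.8 in WT 4. In KO libraries Msx1 ranged from 35.2 to 41.2 CPM with a median of 38.9. The 6 KO libraries formed a narrow band wholly below WT, where S_252 was highest and WT 3 lowest. Mean levels were 62.8 ± 7.03 CPM (SD, n = 5) and 38.6 ± 2.32 CPM (SD, n = 6). Msx1 had a log2 fold change of -0.69 (SE 0.09, 95% interval -0.88 to -0.51, limma adjusted p = 0.00275), which ranked 6 by p among all genes tested.

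Msx2 was at 37.3 CPM in WT S_252, 43.9 in S_254, 27.6 in WT 1, 30.4 in WT 3 and 43.9 in WT 4, and in KO libraries from 19.7 to 29.9 CPM with a median of 23.2. Here 4 of 6 KO libraries lay below every WT library, while KO S_258 and KO 3 lay between WT 1 and WT 3. Msx2 had a log2 fold change of -0.60 (SE 0.15, 95% interval -0.93 to -0.27), with an unadjusted p of 0.00168 and a limma adjusted p of 0.0639. The call depended on the libraries and on the variance model. Msx2 passed without WT 1 (adjusted p = 0.0472), without KO 3 (0.0411), with a robust variance (0.0428) and with no term for the set (0.0430), in an adjusted p range of 0.0411 to 0.260 over all alternatives of the limma fit.

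Bambi encodes a membrane pseudoreceptor without a kinase domain that dampens BMP and related signals and is itself switched on by BMP. Bambi was at 60.6 CPM in WT S_252, 59.7 in S_254, 43.4 in WT 1, 47.1 in WT 3 and 70.1 in WT 4, and in KO libraries from 31.3 to 51.6 CPM with a median of 38.5. The groups overlapped through KO S_280 and KO 4, which lay above WT 1. Its log2 fold change was -0.51 (SE 0.15, 95% interval -0.84 to -0.19), with an unadjusted p of 0.00463 and a limma adjusted p of 0.108. Without KO 4, the highest KO library, Bambi passed with a log2 fold change of -0.62 and an adjusted p of 0.0345, and over all alternatives of the fit its adjusted p lay between 0.0345 and 0.273.

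Smad6 encodes an inhibitory Smad that competes with Smad1 and blocks the type I receptors (chromosome 9, 63953076 to 64022059, minus strand). Smad6 was at 5.17 CPM in WT S_252, 5.55 in S_254, 5.12 in WT 1, 6.08 in WT 3 and 6.58 in WT 4, and in KO libraries from 4.86 to 6.53 CPM with a median of 5.60. The groups covered nearly the same range. For Smad6 the fold change on the log2 scale was -0.01 with an interval of -0.33 to 0.31 and a limma adjusted p of 0.992. Both Smad6 and Bambi are feedback brakes of the pathway. Their intervals overlapped (-0.84 to -0.19 for Bambi), and a difference between the 2 genes was not tested.

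Id proteins bind E proteins, the ubiquitous basic helix-loop-helix partners, and keep them off DNA. Id1 (chromosome 2, 152736251 to 152737410, plus strand) was at 15.2 CPM in WT S_252, 15.9 in S_254, 15.8 in WT 1, 19.4 in WT 3 and 25.5 in WT 4, and in KO libraries from 16.1 to 22.9 CPM with a median of 19.5. The KO range lay inside that of WT, in which WT 4 stood highest. Between groups the log2 fold change of Id1 was 0.07, with an interval of -0.24 to 0.39 and a limma adjusted p of 0.885.

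Id2 (chromosome 12, 25093799 to 25097140, minus strand) was at 57.5 CPM in WT S_252, 72.5 in S_254, 50.1 in WT 1, 53.2 in WT 3 and 65.0 in WT 4, and in KO libraries from 52.7 to 75.3 CPM with a median of 70.2. Only KO 2 lay above the highest WT library, and KO S_280 was the lowest KO library by a wide margin. Id2 had a log2 fold change of 0.19 (95% interval -0.05 to 0.44, limma adjusted p = 0.468).

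Id3 (chromosome 4, 136143497 to 136145755, plus strand) was at 24.7 CPM in WT S_252, 25.9 in S_254, 31.9 in WT 1, 37.1 in WT 3 and 37.6 in WT 4, and in KO libraries from 20.0 to 36.2 CPM with a median of 29.4. The 2 WT libraries of the Ovation set were the lowest WT libraries, and the 3 KO libraries of the NEBNext set were the lowest KO libraries. Over all libraries the log2 fold change of Id3 was -0.12, with an interval of -0.46 to 0.23 and a limma adjusted p of 0.823.

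The sets were then compared, since kit, sex and litter differed between or within them. In the Ovation set alone Msx1 was the only gene of the 10 to pass (log2 fold change -0.80, adjusted p = 0.0259), against 1.15% of all genes. In the NEBNext set alone limma called 0 of the 10 genes, against 0.0231% of all genes (3 genes, with 1562 at an unadjusted p under 0.05). There Bmp7 had a log2 fold change of -0.90 (unadjusted p = 0.000111, adjusted p = 0.0883) and Msx1 one of -0.61 (unadjusted p = 0.000315, adjusted p = 0.102). That every KO library lay below every WT library of its own set for both genes follows from their separation over all libraries and adds no support.

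Bmp7 had a log2 fold change of -0.44 among Ovation libraries and of -0.90 among NEBNext libraries, which differed by -0.46 with an unadjusted p of 0.0450 and a limma adjusted p of 0.368. For Msx1, Msx2 and Bambi the Ovation value was the more negative, at -0.80, -0.80 and -0.65 beside -0.61, -0.43 and -0.40 in the NEBNext set. None of these 3 differences between the sets passed, with limma adjusted p of 0.663, 0.648 and 0.793. Bmp4 had -0.29 and -0.30.

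The Id genes did not keep 1 direction. Id3 was higher in every KO library than in both WT libraries of the Ovation set (31.0 to 36.2 CPM in KO, 24.7 and 25.9 in WT), and lower in every KO library than in every WT library of the NEBNext set (20.0 to 27.9 CPM in KO, 31.9 to 37.6 in WT). Its log2 fold changes of 0.40 and -0.53 differed by -0.92 (SE 0.20, unadjusted p = 0.000608), and over all genes the limma adjusted p of that difference was 0.119. Such a pattern, with the sets opposite and no overlap within either, was found in 1 of the 10 genes and in 2.83% of all genes. No gene passed the test of a difference between the sets (limma lowest adjusted p = 0.0741, with 1694 genes at an unadjusted p under 0.05).

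Id1 had log2 fold changes of 0.39 in Ovation libraries (limma adjusted p = 0.299) and -0.18 in the NEBNext set (limma adjusted p = 0.699). The difference had an unadjusted p of 0.0419 and a limma adjusted p of 0.359. Id2 went the other way, with -0.04 in Ovation libraries (limma adjusted p = 0.926) and 0.38 in NEBNext libraries (limma adjusted p = 0.248). The limma adjusted p of the difference was 0.394. Markers of neighbouring mesoderm and of the bud's own mesenchyme also differed between the sets. Intermediate mesoderm markers summed to between 13.2 and 14.6 CPM in WT and 30.1 and 41.8 CPM in KO of the Ovation set, and to between 20.1 and 30.3 CPM in WT and 17.0 and 35.6 CPM in KO of the NEBNext set. The median log2 fold change of somite markers was 1.53 for Ovation and -1.07 for NEBNext libraries. That of hindlimb mesenchyme markers was 0.33 and -0.17, and that of endothelium markers 0.15 and 0.03. Of the 6 intermediate mesoderm markers only Gata3 passed over all libraries (higher in KO), and limma called 0 of the 5 somite markers tested, none of them at an unadjusted p under 0.05. The part of these tissues in the Id values was not tested.

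**Figure D2:**
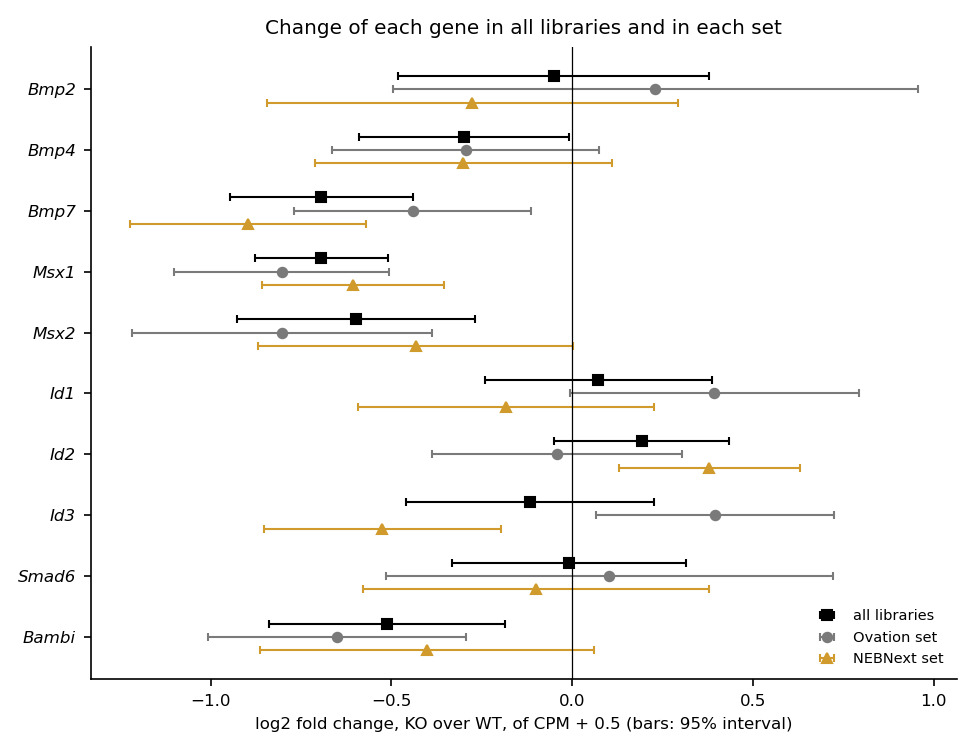
Log2 fold change of KO over WT (x axis) for each gene over all libraries (black squares), for Ovation libraries alone (grey circles) and for NEBNext libraries alone (yellow triangles), with 95% intervals of the limma fit as bars. The intervals of Bmp7 and Msx1 lie below 0 in all 3 fits, while Id3 lies above 0 in the Ovation set (0.40) and below 0 in the NEBNext set (-0.53).

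Ratios of related genes were tested within each library, which removes whatever scales both genes alike. Of 7 pairs compared by an exact permutation test of group labels within the sets (200 arrangements, smallest two-sided p 0.005), 0 passed after Benjamini-Hochberg adjustment over the pairs, and 1 had an unadjusted exact p under 0.05. That pair was Bmp7 over Bmp2, whose mean log2 ratio was 3.10 ± 0.38 (SD, n = 5) in WT and 2.46 ± 0.17 (SD, n = 6) in KO, a difference of -0.65 averaged over the sets (interval -1.03 to -0.21, exact permutation p = 0.01, adjusted p = 0.07). The ratio of Bmp7 to Bmp4 differed by -0.37 (interval -0.76 to 0.02, exact permutation p = 0.065, adjusted p = 0.228). It was not shown that Bmp7 moved more than Bmp4. The ratio of Bmp4 to Bmp2 differed by -0.28 (interval -0.75 to 0.25).

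The ratio of Msx1 to Msx2 was 0.79 ± 0.24 (SD, n = 5) in WT and 0.69 ± 0.28 (SD, n = 6) in KO on the log2 scale. The difference was -0.09, with an interval of -0.52 to 0.32 and an exact permutation p of 0.62, so although Msx1 passed the gene test and Msx2 did not, no unequal change was shown. For Id1 over Id2, Id1 over Id3 and Id2 over Id3 the differences were -0.06, 0.17 and 0.23, and each interval included 0. The average hid opposite sets for Id1 over Id2 (0.43 in the Ovation set, -0.56 in the NEBNext set) and for Id2 over Id3 (-0.44 and 0.91), whereas Id1 over Id3 had -0.0026 and 0.34.

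**Figure D3:**
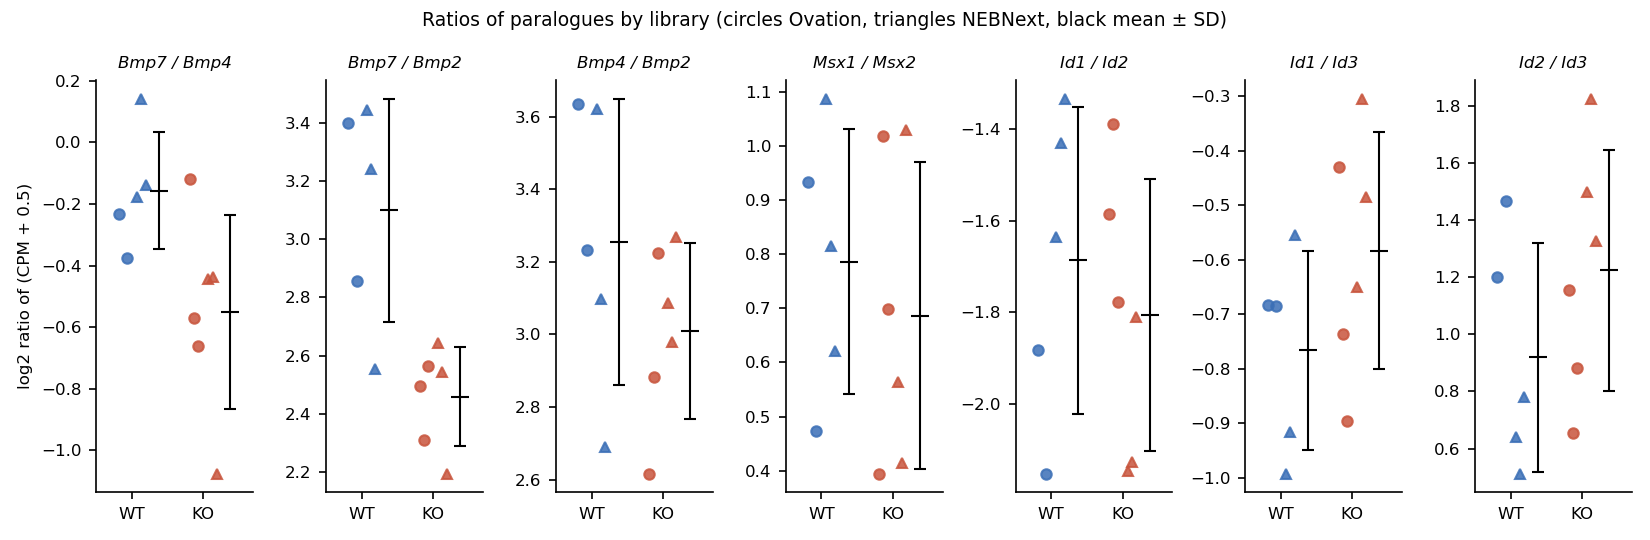
Log2 ratio of CPM + 0.5 (y axis, a separate scale in each panel) for the 7 pairs of related genes in each WT (blue) and KO (red) library, with circles for the Ovation set, triangles for the NEBNext set and a black bar for the mean ± SD. For Bmp7 over Bmp2 the KO libraries lie between 2.19 and 2.64 and the WT libraries between 2.55 and 3.45, and the groups overlap in every panel.

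To compare genes with each other, CPM was divided by the exonic length of each gene in kilobases. Id2 had the highest level per length in WT, 24.5 ± 3.74 CPM per kb (SD, n = 5), followed by Bmp4 at 20.5 ± 2.64, Msx1 at 20.3 ± 2.27, Id3 at 17.6 ± 3.38 and Id1 at 15.8 ± 3.72. Msx2, Bambi and Bmp7 came next at 11.2, 11.1 and 10.3 CPM per kb, and Smad6 (1.78) and Bmp2 (1.26) were last. In WT the ranges of neighbours in this order overlapped except between Bmp7 and Smad6 and, by a small margin, between Smad6 (lowest 1.60) and Bmp2 (highest 1.58).

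In KO buds Id2 (27.9 CPM per kb) and Bmp4 (16.8) stayed highest in level per length, and Msx1 stood below Id1 (16.4) and Id3 (16.3) at 12.5 ± 0.748 CPM per kb (SD, n = 6). Its KO range overlapped that of Id3 but not that of Bambi, the next in order at 7.77 CPM per kb. Msx2, Bmp7, Smad6 and Bmp2 followed at 7.34, 6.32, 1.77 and 1.19 CPM per kb.

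Variation among libraries was described with the group and set means removed as separate terms, over 11 libraries and 45 pairs of genes, and without a test. Group differences that were unlike in the 2 sets therefore remained in these values. The log2 fold change of NEBNext minus that of Ovation was -0.46 for Bmp7 and 0.20 for Msx1. The part of such differences in the r values was not tested. With these means removed, Bmp7 and Msx1, the genes that fell together between groups, varied in opposite directions (Pearson r -0.84, Spearman rho -0.84). This r was the most negative of the 45 pairs. The further values for this pair come from the same 11 libraries and add no separate support. Without WT 3 and KO S_258, the libraries farthest from the median of Bmp7, r was -0.78. In the 5 WT libraries the order of Msx1 was the exact reverse of that of Bmp7, from S_252 with the lowest Bmp7 and the highest Msx1 to WT 3 with the highest Bmp7 and the lowest Msx1. Within the 6 KO libraries r was -0.44. Over all 11 libraries with no means removed r was 0.73, since both genes differ between the groups.

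Other pairs varied in the same direction. Msx2 and Id2 had a residual r of 0.78 and the same order in all 5 WT libraries. Id1 varied with Bmp2 (r 0.77) and with Id3 (0.73), and Msx1 with Bambi (0.68), while Bmp4 and Msx2 went in opposite directions (-0.69). All libraries share 1 scaling and batch correction, so these values describe the deposited table.

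**Figure D4:**
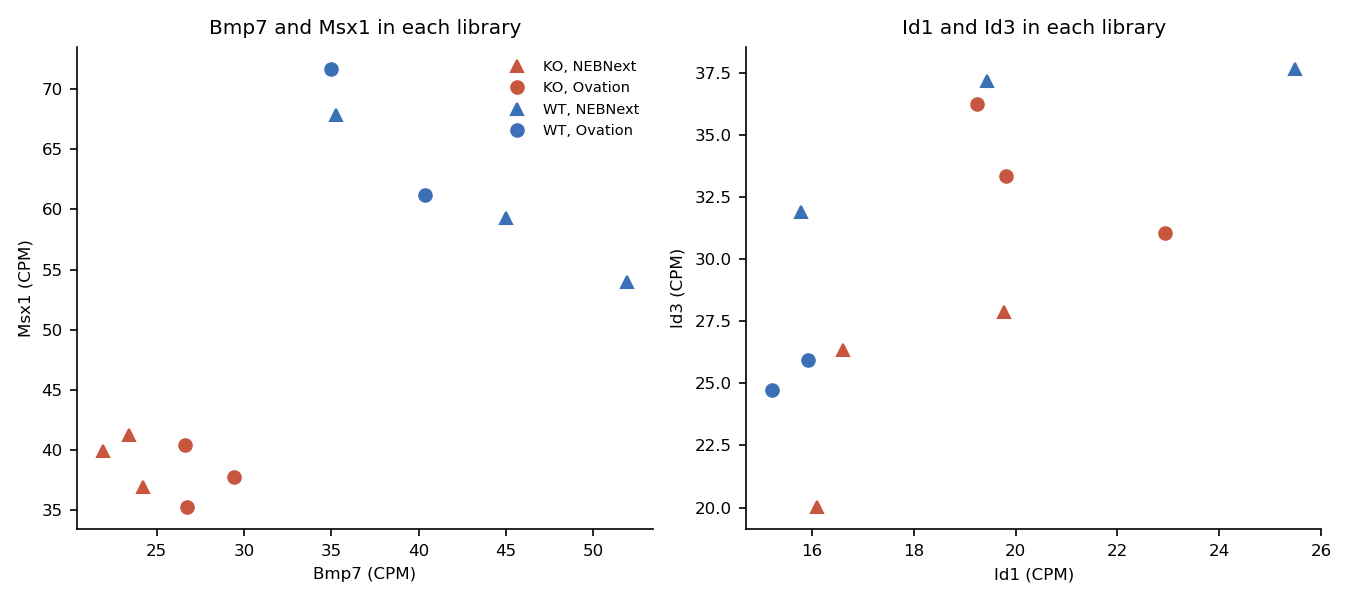
Left, Bmp7 (x axis) and Msx1 (y axis) in CPM in each library. Right, Id1 and Id3 in CPM, with WT in blue, KO in red, circles for the Ovation set and triangles for the NEBNext set; axes do not start at 0. WT libraries fall along a descending line on the left, from S_252 (35.0 and 71.7 CPM) to WT 3 (51.9 and 53.9 CPM), and apart from the KO libraries.

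The genes whose log2 levels followed Bmp7 most closely over the 11 libraries, group difference included, were Ctsh (Pearson r 0.95), a lysosomal cysteine protease, Zic2 (0.94), a zinc finger transcription factor, and Vgll4 (0.93), a cofactor of TEAD factors. Zic2 itself fell (log2 fold change -1.23, limma adjusted p = 0.0205), and Ctsh and Vgll4 had values of -0.70 and -0.32 without passing (adjusted p = 0.0892 and 0.0687). For Msx1 they were Lmo7 (0.95), a LIM domain protein of cell junctions, the predicted gene Gm14226 (0.94) and Rtca (0.94), an RNA cyclase. Lmo7 and Gm14226 fell (log2 fold changes -1.25 and -2.09, limma adjusted p = 0.00275 and 0.00897), and Rtca had -0.21 (adjusted p = 0.148).

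The rest of the pathway was read from 7 lists by role, and limma called 0 of the 38 genes tested in them, against 2.09% of all genes, with 4 of the 38 at an unadjusted p under 0.05 (Bmp5, Smad1, Sostdc1 and Rgmb), against 14.7% of all genes, so the lists held no larger share than the table as a whole. Of the other ligands, 2 of 7 were tested. Bmp5, a ligand related to Bmp7, was at 12.2 ± 5.59 CPM (SD, n = 5) in WT and 18.9 ± 5.09 CPM (SD, n = 6) in KO, a log2 fold change of 0.65 (unadjusted p = 0.0328, limma adjusted p = 0.280), and Gdf6 had 0.29. The 7 receptors had a median log2 fold change of 0.14, with Acvr2a at 0.16, Acvr1 at -0.20 and Bmpr2 at 0.14.

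Smad1, a signal-transducing Smad, was the closest of the list genes to the threshold. It lay between 40.7 and 46.3 CPM in WT and between 29.7 and 37.4 CPM in KO, so all KO libraries were below all WT libraries. Its log2 fold change was -0.35 (unadjusted p = 0.00117, limma adjusted p = 0.0521). Smad9, Smad4 and Smad5, the other members of the list of 4, had 0.27, -0.05 and 0.03.

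Among 13 of 16 modulators tested, Sostdc1, a secreted BMP and WNT antagonist, was at 4.83 ± 1.31 CPM (SD, n = 5) in WT and 7.96 ± 1.72 CPM (SD, n = 6) in KO, a log2 fold change of 0.68 (unadjusted p = 0.00551, limma adjusted p = 0.119). Rgmb, a BMP coreceptor, had 0.51 (adjusted p = 0.319) and Kcp -0.44 (adjusted p = 0.380). The antagonist genes Nog and Chrd were not among the genes tested. Grem1, a tested modulator, was at 33.7 ± 14.2 CPM (SD, n = 5) in WT and 32.1 ± 6.03 CPM (SD, n = 6) in KO. Its log2 fold change was -0.0078 (limma adjusted p = 0.998). Of 6 other intracellular inhibitors, Smurf2, Smurf1 and Ppm1a had -0.12, -0.08 and 0.05. Among 3 further responders, Hey1, Id4 and Atoh8 had -0.28, -0.33 and 0.02. The E proteins Tcf12, Tcf4 and Tcf3, to which Id proteins bind, had -0.13, -0.11 and 0.04. The value of Tcf3 averaged opposite directions, 0.53 among Ovation libraries and -0.36 among NEBNext libraries, the same directions as for Id3. Its difference between the sets had a limma unadjusted p of 8.7e-05 and did not pass (adjusted p = 0.0757). Tcf12 had -0.19 among Ovation and -0.09 among NEBNext libraries, and Tcf4 had -0.28 and 0.02.

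**Figure D5:**
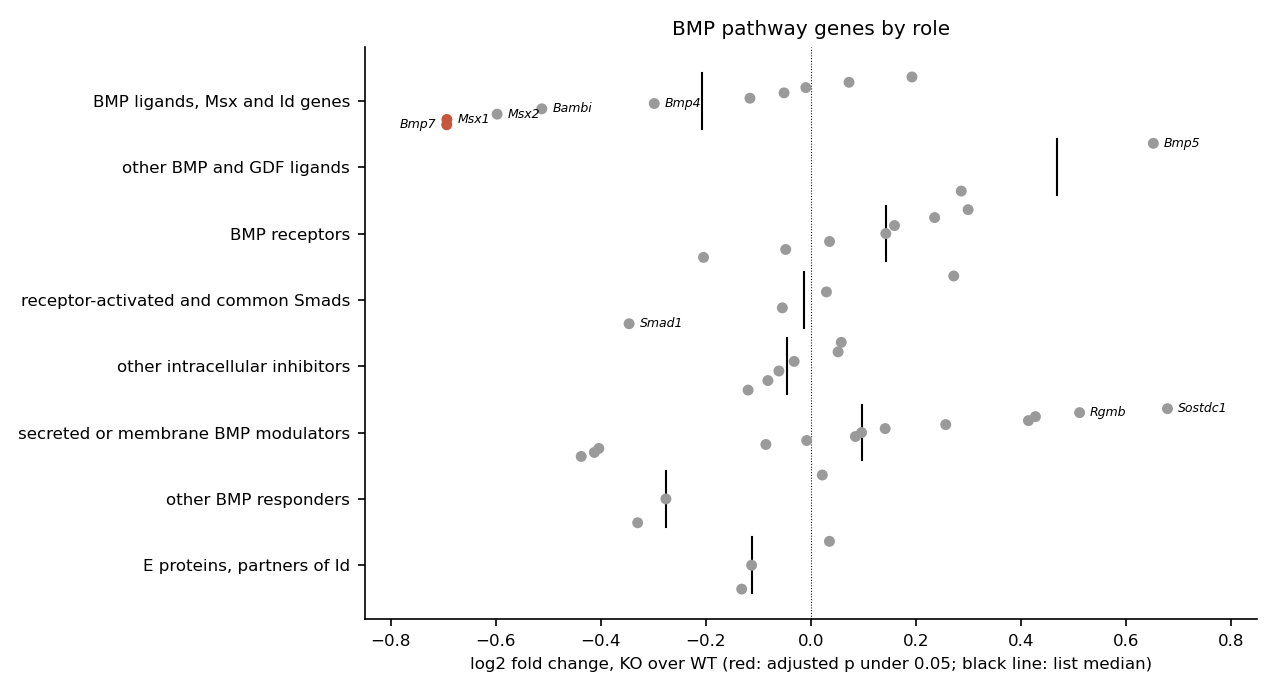
Log2 fold change of KO over WT over all libraries (x axis) for the 10 genes (top row) and for 7 lists of other pathway genes by role, 1 point per gene, red where the limma adjusted p was under 0.05, with a black line at the median of each list and a name at each gene with an unadjusted p under 0.05. Bmp7 and Msx1 at -0.69 are the only red points, and the list medians run from -0.28 (other responders) to 0.47 (other ligands).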

How the data were processed

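Per the submitters' notes, reads of the Ovation set were processed with CASAVA 1.8.2, cutadapt 1.3 and RSEM 1.2.3 on GRCm38. The NEBNext notes name bcl2fastq, cutadapt, RSEM and limma without versions. Libraries were made with Ovation RNA-Seq v2 (5 embryos) or NEBNext Ultra II Directional (6 embryos). The authors scaled estimated counts by TMM, removed batch differences with ComBat and deposited CPM on a linear scale. The set means of log2 levels differed by less than 0.1 in 96.5% of genes and by at most 0.04 in the 10 genes. Whether ComBat was given the genotypes is not stated in the sources used here. After such a correction the spread, and with it p, can be too small.

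Log2(CPM + 0.5) was fitted in limma 3.58.1 (R 4.3.3) with group and set as terms and a variance trend, for the 12996 genes that reached 1 CPM in 4 or more libraries (724 removed), with Benjamini-Hochberg adjustment over all of them. Positions and exonic lengths came from GENCODE M21, and ratios, permutations and plots used Python 3.11.15 (numpy 2.4.6, scipy 1.17.1). Alternatives were other pseudocounts, filters, scalings, thresholds and variance models, a replicate block, litter 1 alone and each library left out. The fit was tested on simulated data. Tests were two-sided, and p-values measure the spread between single embryos. All 10 members are named, with up to 3 genes of smallest p per pathway list, the 3 genes most alike each called member, and the genes behind counts of 5 or fewer. The members and lists were chosen with earlier results of these data known. Smad5, Grem1, the markers named singly and the E protein values by set were chosen after their values were seen.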

Additional observations from a re-analysis of the deposited data

Results flagged for a closer look

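Id2 in KO S_280, at 52.7 CPM, stood apart as the lowest of the 6 KO libraries, the next being KO S_284 at 67.1 CPM. It was the 1 gap among 20 gene and group combinations screened to exceed Dixon's 95% critical value, and chance alone gives about 1 in 20. KO S_280 came from litter 3 and was at 32 to 33 somites, and the part of litter or stage in this value was not tested.

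The log2 fold change of Id3 differed by -0.92 between the sets (NEBNext minus Ovation), with every KO library above both WT libraries in the Ovation set and below every WT library in the NEBNext set. The interaction test in limma gave an unadjusted p of 0.000608 and an adjusted p of 0.119 over all genes, so it failed the correction. In the Ovation set the groups also differed in sex and litter, whose part in Id3 cannot be told apart from genotype there.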

How the results depend on the processing

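Msx1 passed at an adjusted p of 0.05 in the limma fits under every alternative run over all libraries and without each library in turn (adjusted p 0.00123 to 0.0337), with a log2 fold change of -0.74 to -0.63. Bmp7 passed in the same fits (leave-one-out adjusted p 0.00942 to 0.0344, log2 fold change -0.78 to -0.61) except with the replicate block (-0.65, adjusted p = 0.0674) and at the stricter threshold of 0.005. The count of the 10 genes called was 1 with the replicate block and 1 at an adjusted p of 0.005, and 2 to 3 without each library in turn. The count over all genes, 272, was 64 with the replicate block, 102 with litter 1 alone in the Ovation set and 15 at 0.005, and ran from 106 (without KO 2) to 337 on leaving out a library, with 124 without WT S_252, 127 without WT S_254 and 168 without KO S_284. Whether the numbers 3 and 4, shared by WT and KO of the NEBNext set, mark pairs of embryos was not settled. Deviations of same-numbered libraries correlated at -0.04 and -0.15, within the -0.27 to 0.10 of other pairs, but so few pairs cannot exclude pairing.

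Genes near 0 changed sign when 1 library was left out, none of them past the threshold. The ranges were -0.23 to 0.034 for Bmp2, -0.051 to 0.038 for Smad6, -0.23 to 0.0064 for Id3 and -0.0018 to 0.19 for Id1. The ratio of Msx1 to Msx2 ran from -0.20 to 0.029 and that of Id1 to Id2 from -0.13 to 0.0030 on leaving out a library. In the Ovation set alone the difference was 0.00015 for Msx1 over Msx2, 0.43 for Id1 over Id2, -0.0026 for Id1 over Id3 and -0.44 for Id2 over Id3, and in the NEBNext set alone it was -0.56 for Id1 over Id2 and 0.91 for Id2 over Id3. The cause of these shifts was not tested. Limits: read depth is unknown, the smaller sets have 3 and 4 residual degrees of freedom, and single libraries of each embryo carry no technical replicate.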
